A study of Mus musculus with 8 samples.

Results

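The replication-dependent and linker histone genes were examined in RNA-seq counts of EO771 cells. They were chosen by symbol alone: H1f followed by a number (linker histone H1), H2ac (H2A), H2bc (H2B), H3c (H3) and H4c (H4) followed by a number, and H4f16. This gave 69 of the 49997 genes in the table, namely 10 H1, 18 H2A, 16 H2B, 12 H3 and 13 H4 genes. Of these, 29 averaged 10 or more counts across the 8 libraries (5 H1, 5 H2A, 2 H2B, 8 H3 and 9 H4) and were tested. Of the remaining 40, 2 (H1f7 and H2ac1) had no count in any library.

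Core histones H2A, H2B, H3 and H4 form the protein spool of the nucleosome, and H1 binds the linker DNA between nucleosomes. Most of these genes lie in clusters and are transcribed in S phase, when new DNA has to be packaged. Their mRNAs are the main class of animal mRNA without a poly(A) tail: they end just after a stem-loop that is bound by the stem-loop binding protein SLBP. H1f0 and H1f10 are linker histone genes outside this class, with polyadenylated mRNAs that are made outside S phase too.

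EO771 is a mouse breast cancer cell line. In 1 experiment, cells were kept for 48 h with 12-HETE, a lipid made by 12-lipoxygenase, at 100 nM or with its vehicle, saline that held 2% DMSO. In the other, cells were transduced with an empty vector or with a vector that overexpresses ADAR1 p150, the long isoform of an RNA-editing enzyme. Each of the 4 groups held 2 libraries, numbered 4 and 5 in the first experiment and 1 and 2 in the second, as in the labels. The labels do not say whether these were separate cultures, although a legend in the study calls its editing data on these conditions independent experiments. P-values measure the spread between libraries, which may in part be technical. A transduced population is compared with another transduced population, and whether these were clones is not given in the sources used here.

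The libraries held between 1101767 and 1537037 counts, of which AY036118 took between 44.4% and 50.3%. A total of 6901 genes reached the minimum, and 3 counts, the most that a true level may reach where no count is seen, corresponded to between 2.11 and 2.74 CPM (counts put on a common library scale with TMM factors). Intervals and such floors cover counting error only. Adar, the overexpressed gene, had 181 and 140 counts in the ADAR1 p150 libraries and between 2 and 8 in the other 6 (log2 fold change 4.68 ± 0.315 SE, adjusted p = 6.4e-14 by edgeR's quasi-likelihood test). The epithelial keratin genes Krt8 and Krt18 were detected in all libraries, Epcam had between 1 and 4 counts and Cdh1 had none. The defining genes of leukocytes (Ptprc), endothelium (Pecam1) and fibroblasts (Col1a1) had at most 1, 6 and 3 counts. The histone genes took between 404 and 1350 counts per library. Fewer cells in S phase and less histone RNA per cell cannot be told apart in such bulk RNA.

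The stem-loop is the sequence by which these transcripts are recognised, so its forms are shown here. It was searched in GENCODE M21 transcripts as 6 bases, a loop of 4 bases and the 6 complementary bases, on the pattern GGNNCTTNTNAGNNCC in the sense strand. Of 53 histone genes with at least 20 bases modelled past the stop codon, 44 (83.0%) held a match, against 9 of 21013 other protein-coding genes (0.0428%). The forms that follow are shown 5′ to 3′ with the 2 arms of the stem in capitals and the loop in lower case.
form of 24 H1, H2A, H2B and H3 genes, among them H1f2, H2ac8, H2ac18, H2bc9 and H3c14: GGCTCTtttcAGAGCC
form of 6 genes, among them H3c3 and H3c6: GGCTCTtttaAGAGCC
form of 7 H4 genes, among them H4c3, H4c4, H4c6 and H4c8: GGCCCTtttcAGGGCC
form of H4c2 and H4c11: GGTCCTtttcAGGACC
form of H4c9 and H4c14: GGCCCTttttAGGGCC
The stem therefore separated H4 genes from the other classes among the printed forms, while the loop differed within classes. H1f0 and H1f10 held no match. H2ac21, H2bc15, H3c11 and H4c12 had no such stretch in their models and could not be searched. Several models run on past the stem-loop, by 840 bases in H1f2, 1214 in H2bc9 and 1162 in H3c14, but by 28 in H4c2 and 35 in H2ac18.

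Read counting among these genes has limits that follow from their sequence and from overlapping gene models. Of the 68 genes found in GENCODE, 60 shared at least one 50-base stretch with another gene, and 8 shared at least 90% of such stretches. H3c14 shared 100% of them, H3c11 87.6%, H2bc15 86.4% and H4c2 54.6%, whereas H1f0 and H1f10 shared none. How multi-mapped reads were handled is not given in the sources used here, so counts of single H2A, H2B, H3 and H4 genes are uncertain. Sums over a class are less exposed if such reads were assigned among its genes, but would lack them if they were discarded. A total of 22 genes overlap an exon on the opposite strand, and no source used here says whether counting was by strand. All but one of the opposite-strand neighbours are not named in the table, and that one, Gm5577 opposite H1f10, had 3 counts in total. On the same strand 7 genes overlap an exon of another gene, among them H1f4 and H2bc6, which overlap by 496 bases. Gm20634, not named in the table, covers 100% of H3c14 and 90.3% of H2ac18 on the same strand. The stretches that H3c14 and H2ac18 share with other genes therefore include this overlap of models.

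Summed over all 69 genes, the histone level was lower in both ADAR1 p150 libraries than in any other library. It was 946 and 930 CPM in vehicle, 963 and 1010 in 12-HETE, 1020 and 659 in vector, and 397 and 305 in ADAR1 p150. The group means were 938 ± 11.3, 987 ± 33.3, 837 ± 253 and 351 ± 64.6 CPM (SD, n = 2). ADAR1 p150 was thus at 0.419 of vector, a log2 ratio of -1.25, and the vector libraries differed widely between themselves. Without vector library 1 the log2 ratio was -0.91, and without vector library 2 it was -1.53. With 12-HETE the log2 ratio to vehicle was 0.07, and its sign depended on the scaling, being -0.13 with library totals. These sums carry no test.

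**Figure D1:**
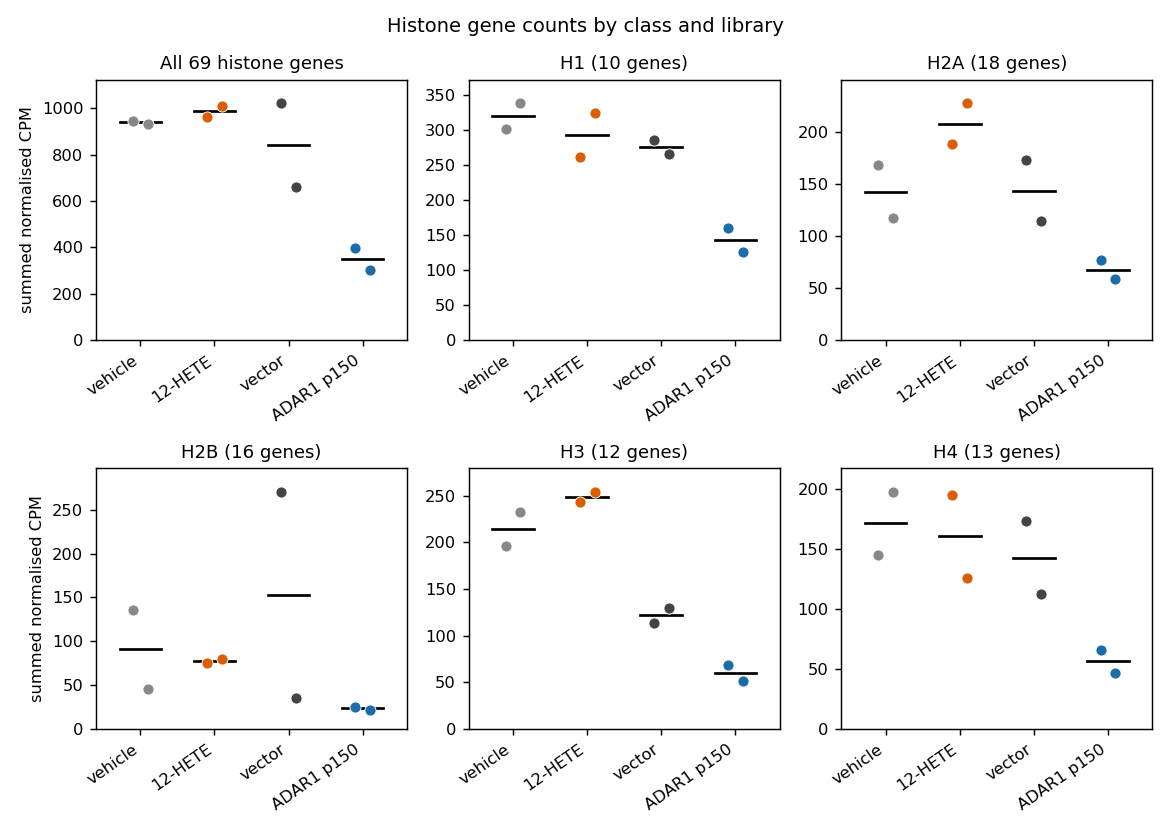
Summed histone level in each library, as CPM scaled by TMM (vertical axis, from 0), for all 69 genes and for each of the 5 classes in 4 groups. Points are libraries and bars are means of 2. In every panel both ADAR1 p150 libraries lie under both vector libraries, and in H2B a single vector library reaches 270 CPM against 35.8 in the other.

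By class, the H1 sum was 286 and 266 CPM in vector and 160 and 126 in ADAR1 p150 (means 276 ± 13.6 and 143 ± 23.7, log2 ratio -0.95), and 301, 338, 262 and 324 in the vehicle and 12-HETE libraries. H2A was at 173 and 114 in vector against 76.7 and 59 in ADAR1 p150 (-1.08), and at 168 and 117 in vehicle against 188 and 227 in 12-HETE (0.54). The groups did not overlap in either H2A comparison.

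H2B was at 270 and 35.8 CPM in vector and at 25.3 and 21.9 in ADAR1 p150, so that its log2 ratio of -2.70 rested on vector library 1. It was at 136 and 45.6 in vehicle and at 74.9 and 79.6 in 12-HETE. H3 was at 114 and 130 in vector and 68.9 and 51.4 in ADAR1 p150 (-1.02), and at 196, 233, 243 and 254 in the first experiment. H4 was at 173 and 112 in vector and 66.1 and 46.9 in ADAR1 p150 (-1.34), with overlapping values of 145 and 197 in vehicle and 195 and 126 in 12-HETE. Between the control groups, H3 (log2 ratio -0.81) and H1 (-0.21) were lower in vector than in vehicle with no overlap.

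The comparison of ADAR1 p150 with vector asks what the overexpressed isoform changes. Here 12 of the 29 tested histone genes fell and 0 rose, where a call needed at least a 2-fold change and an adjusted p under 0.05 in edgeR's quasi-likelihood test. Over all 6901 genes 4.69% fell and 8.11% rose. With the adjusted p alone 14 were lower (11.1% of all genes). At an unadjusted p under 0.05 there were 18 lower and 1 higher, and DESeq2 called 4 lower and 0 higher. Without vector library 1 the count was 5, with 4 lower and 1 higher (H3c2). The median log2 fold change of the tested histone genes was -1.18, beside 0.07 over all genes. For 7 of them (H2bc15, H3c2, H3c11, H4c2, H4c3, H4c6 and H4c14) the mean count outside their highest group was under 10, so passing the minimum was not independent of the groups and the count is a description. Over all 69 genes, with no minimum, both ADAR1 p150 libraries lay under both vector libraries in 35 (50.7%) and above them in 0. The share over all genes was taken over tested genes only, 26.3% lower and 33.7% higher, where the tested histone genes gave 16 of 29 (55.2%) and 0. Library depth enters this tally at low counts: H2ac24, with 1 count in each vector and each ADAR1 p150 library, was scored lower.

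H1 genes encode linker histones, and all 5 tested were lower in both ADAR1 p150 libraries than in both vector libraries. H1f0, which encodes the replacement linker histone H1.0 (chr15:79028212-79030504, plus strand, GRCm38.p6), had 66 and 54 counts in vector, 36 and 25 in ADAR1 p150, 68 and 72 in vehicle and 57 and 61 in 12-HETE. It fell by 1.27 ± 0.239 on the log2 scale (SE, adjusted p = 1.05e-04 by edgeR's quasi-likelihood test). H1f10, which encodes H1.10, had 44 and 34 counts in vector and 17 and 25 in ADAR1 p150, and fell by 1.18 ± 0.295 (adjusted p = 0.00268, edgeR).
H1f0 remained called in each alternative and without each library, while the call for H1f10 was lost without vector library 1 (-0.95) and without ADAR1 p150 library 1 (-0.88).

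H1f2, the most counted histone gene, encodes a replication-dependent linker histone and carries the stem-loop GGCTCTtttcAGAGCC. It had 116 and 141 counts in vector and 98 and 74 in ADAR1 p150, which were the deeper libraries. Its log2 fold change was -0.87 ± 0.172 with an adjusted p of 1.97e-04 in edgeR, short of 2-fold. H1f4 was at -0.64 ± 0.237 (adjusted p = 0.0453) and H1f3, which did not pass, at -0.95 ± 0.445 (adjusted p = 0.116, edgeR).

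H2A genes encode the core histone with the acidic patch of the nucleosome, and 2 of 5 tested fell. H2ac21 (chr3:96219885-96220354, plus strand) had 58 and 65 counts in vector, 11 and 21 in ADAR1 p150, 73 and 61 in vehicle and 107 and 92 in 12-HETE. Both ADAR1 p150 libraries stood apart below the other 6, and the fall of 2.22 ± 0.278 had an adjusted p of 1.21e-07 in edgeR. It was called in every alternative, between -2.81 and -1.78 with a library left out. H2ac18 had 33 and 10 counts in vector and 8 and 10 in ADAR1 p150 (-1.54 ± 0.477, adjusted p = 0.0150, edgeR). Without vector library 1 it was at -0.41 and no longer called, and the call was also lost without ADAR1 p150 library 1 (-1.34). H2ac8 (-0.95), H2ac20 (-0.22) and H2ac7 (0.38) did not pass.

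Both tested H2B genes were called lower, and both calls were decided by vector library 1. H2bc9 had 105 and 1 counts in vector and 6 and 3 in ADAR1 p150, with 81 and 4 in vehicle and 15 and 8 in 12-HETE. Its log2 fold change was -3.83 ± 0.943 (adjusted p = 0.00232, edgeR), but 1.80 without vector library 1. H2bc15 had 143 and 4 counts in vector and 0 and 1 in ADAR1 p150, with 30 and 0 in vehicle and 6 in each 12-HETE library. Over both libraries its ratio of vector to ADAR1 p150 was 180, with a 95% exact binomial interval from 31.8 to 7160 that covers counting error only, and the fitted value of -7.16 was -2.96 and not called without vector library 1. High counts of these genes in a single library of a group thus occurred in vehicle and in vector.

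H3 genes encode the core histone whose tail carries many of the known chromatin marks, and 3 of 8 fell. H3c13 had 20 and 11 counts in vector and 9 and 5 in ADAR1 p150 (-1.43 ± 0.459, adjusted p = 0.0193, edgeR). H3c15 had 21 and 6 in vector and 4 in each ADAR1 p150 library (-2.02 ± 0.670, adjusted p = 0.0239, edgeR). The groups did not overlap in either gene. Without vector library 1 neither was called (-0.90 and -0.83), and leaving out ADAR1 p150 library 2 ended both calls too (-1.12 and -2.06), as did leaving out ADAR1 p150 library 1 for H3c15 (-1.96).

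H3c11 had 4 and 87 counts in vector, 2 and 5 in ADAR1 p150, 6 and 8 in vehicle and 2 and 5 in 12-HETE. Its log2 fold change was -3.93 ± 0.728 (adjusted p = 8.21e-05, edgeR), which rested on vector library 2, without which the value was -0.50 and not called. H3c6 (-1.37), H3c4 (-1.37), H3c14 (0.03), H3c3 (0.42) and H3c2 (1.72) did not pass, and of these only H3c6 had groups that did not overlap.

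H4 genes encode the partner of H3 in the nucleosome core, and 3 of 9 fell. H4c3 had 5 and 14 counts in vector and 3 in each ADAR1 p150 library, with 14 and 15 in vehicle and 28 and 16 in 12-HETE (-1.91 ± 0.639, adjusted p = 0.0251, edgeR). H4c9 had 19 and 18 in vector and 12 and 6 in ADAR1 p150 (-1.32 ± 0.430, adjusted p = 0.0206, edgeR). Groups did not overlap for these, but H4c3 was called only with vector library 2 and both ADAR1 p150 libraries present (-1.03, -1.86 and -1.96 without them), and H4c9 was not called without vector library 1 (-1.25), vector library 2 (-1.39) or ADAR1 p150 library 2 (-0.96).

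H4c2 (chr13:23756937-23757386, plus strand), with the stem-loop form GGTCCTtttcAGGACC, had 88 and 4 counts in vector, 8 and 7 in ADAR1 p150, 1 and 7 in vehicle and 9 and 1 in 12-HETE. Its log2 fold change of -2.90 ± 0.668 (adjusted p = 0.00118, edgeR) was 0.63 without vector library 1, and the groups overlapped. The remaining 6 tested H4 genes lay between -1.49 (H4c14) and 0.10 (H4c12) and did not pass.

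**Figure D2:**
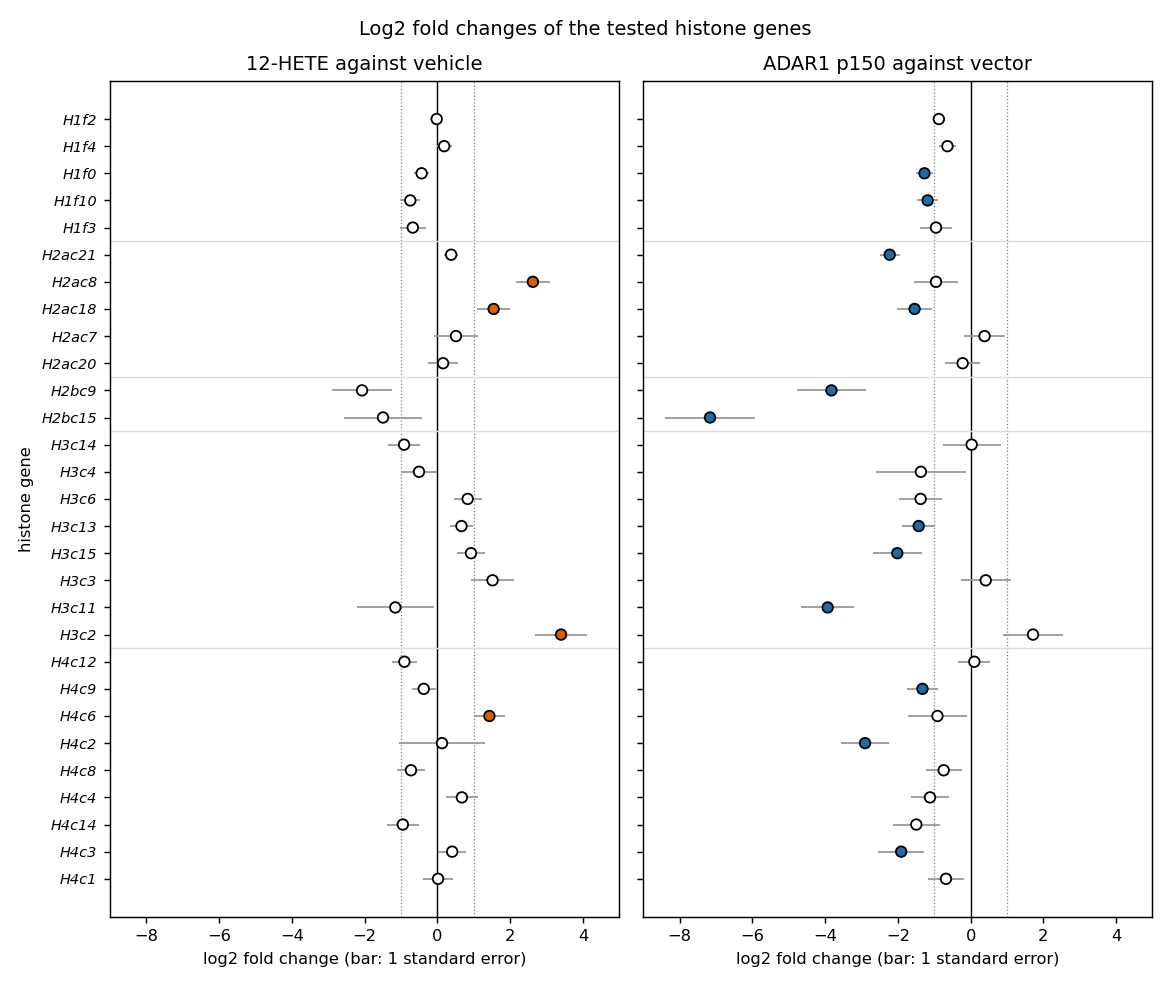
Log2 fold change (horizontal axis) of the 29 tested histone genes, ordered by class, with 12-HETE (left) and with ADAR1 p150 (right), each against its control. Points are fitted values and lines 1 standard error either way; filled points are called (blue lower, orange higher), and dotted lines mark 2-fold. There are 4 filled points to the right for 12-HETE and 12 to the left for ADAR1 p150, and H2bc15, H3c11 and H2bc9 lie farthest left.

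The comparison of 12-HETE with vehicle asks what the lipid changes in these cells. Of the 29 tested histone genes 4 rose and 0 fell, beside 6.12% and 8.25% of all 6901 genes. Of the 4, H3c2 and H4c6 averaged 7 and 9.33 counts outside 12-HETE and so reached the minimum only through the group where they were high, which makes the count a description. At an unadjusted p under 0.05 there were 8 higher and 6 lower, and DESeq2 called 1 higher and 0 lower. The median was 0.13, beside 0.00 over all genes. Groups did not overlap in 18 of all 69 genes above vehicle (26.1%) and in 15 below it (21.7%). Among tested genes the shares were 17.2% and 24.1% of the 29 histone genes, beside 32.9% and 31.2% of all. Scaling by library totals moved the median of all genes by -0.20 on the log2 scale, so small changes in this comparison are relative to the scaling.

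H2ac8 (chr13:23570663-23571220, minus strand) had 12 and 4 counts in vehicle, 30 and 83 in 12-HETE, 20 and 7 in vector and 6 and 11 in ADAR1 p150. Both 12-HETE libraries were above the other 6, although they differed between themselves. It rose by 2.62 ± 0.477 on the log2 scale (adjusted p = 5.14e-05, edgeR) and was called in each alternative that tested it and without each library. H2ac18 had 12 and 7 counts in vehicle and 41 and 23 in 12-HETE (1.54 ± 0.444, adjusted p = 0.00758, edgeR). Its call was lost without vehicle library 5 (1.12) and without 12-HETE library 4 (1.13).

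H3c2 had 4 and 2 counts in vehicle and 12 and 62 in 12-HETE, and rose by 3.40 ± 0.718 (adjusted p = 3.69e-04, edgeR), but stood at 1.72 and was not called without 12-HETE library 5. H4c6 had 24 and 9 counts in vehicle and 83 and 20 in 12-HETE, so the groups overlapped. Its value of 1.43 ± 0.434 (adjusted p = 0.0113, edgeR) was 0.14 without 12-HETE library 4 and 0.80 without vehicle library 5, and was called in neither. The high library was thus 12-HETE 5 for H2ac8 and H3c2 and 12-HETE 4 for H2ac18 and H4c6.

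H1f10 (28 and 29 counts against 38 and 46 in vehicle, -0.75 ± 0.276, adjusted p = 0.0390, edgeR) and H4c12 (34 and 20 against 31 and 58, -0.91 ± 0.335, adjusted p = 0.0381, edgeR) were lower without reaching 2-fold, 2 of 29 beside 14.2% of all genes that were lower by the adjusted p alone. Their groups did not overlap after scaling. The remaining linker histones were at -0.02 (H1f2), 0.19 (H1f4), -0.43 (H1f0) and -0.68 (H1f3), and H2ac21 was at 0.38 ± 0.199. H2bc9 (-2.07 ± 0.815), H3c3 (1.52 ± 0.594) and H3c15 (0.92 ± 0.387) had adjusted p values of 0.0525, 0.0516 and 0.0697 in edgeR and were not called. In H2bc9 the vehicle libraries held 81 and 4 counts, and in H3c3 the 12-HETE libraries held 77 and 6.

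The effects of both treatments were compared in the same fit as the difference of their log2 fold changes, ADAR1 p150 minus 12-HETE. It was called for 7 of the 29 tested histone genes, all lower (2.19% of all genes were lower and 6.14% higher), with 8 lower by the adjusted p alone (6.68% of all genes) and 14 lower and 0 higher at an unadjusted p under 0.05. DESeq2 called 1 lower and 0 higher and gave no adjusted p for 21 of the 29. The edgeR count is a description, since H4c3, one of the 7, averaged 9 counts outside 12-HETE and reached the minimum only through that group. The 7 genes were H2ac8, H2ac18, H2ac21, H3c6, H3c13, H3c15 and H4c3, and without vector library 1 the count was 3. In all 7 the fitted effects had opposite signs, higher with 12-HETE and lower with ADAR1 p150, as in H2ac21 (0.38 and -2.22) and H3c6 (0.83 and -1.37), but H2ac18 (1.54 and -1.54) was the one called in each treatment.

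Between the control groups, which differ in vehicle, transduction and experiment, 1 of 29 tested histone genes was higher in vector and 1 lower, where 0.0145% and 0.0290% of all genes were. Thus 2 of the 3 genes called among 6901 were histone genes. These were the marker genes named for the set, which was chosen with earlier results of these data known. The count is a description, since H4c2 averaged 5.5 counts outside vector and reached the minimum only through that group. H4c2, at 1 and 7 counts in vehicle and 88 and 4 in vector, was higher by 3.58 ± 0.762 (adjusted p = 0.0366, edgeR). H3c14 (chr3:96246685-96247348, plus strand), at 23 and 184 in vehicle and 23 and 5 in vector, was lower by 2.78 on the log2 scale (SE 0.572, adjusted p = 0.0366, edgeR). In both genes the groups overlapped. H4c2 was at 0.05 without vector library 1 and at 2.82 without vehicle library 4, and H3c14 at -0.62 without vehicle library 5 and -2.04 without vector library 2, and none of these values was called. DESeq2 called neither.

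The spread between the 2 libraries of a group set the tested histone genes apart from most genes. The absolute log2 ratio between replicate libraries, averaged over the 4 groups after adding 1 CPM, had a median of 0.87 in the 29 tested histone genes, of 0.30 in all tested genes and of 0.37 in the 5007 tested genes within the range of mean counts of the tested core histone genes. It was 0.29 in H1, 0.87 in H2A, 2.70 in H2B, 1.68 in H3 and 0.80 in H4. Of the 10 tested genes with the largest such ratio 8 were histone genes of the set, led by H2bc9 (2.78), H2bc15 (2.63), H3c4 (2.14), H4c2 (2.05), H3c14 (1.96) and H3c3 (1.90). Of these 8, H2bc15, H4c2 and H3c2 averaged 7.17, 5.5 and 7 counts outside their highest group. They were thus tested only through the group that holds their high library, and the count is a description. The other 2 of the 10, named after their values were seen, were H4bc24 (1.89) and the mitochondrial ribosomal RNA gene mt-Rnr1 (1.86). H4bc24, outside the symbol rule, shares 50-base stretches with H2B genes, among them H2bc9 and H2bc15.

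The library that stood out was not the same from gene to gene. Only 3 of the 6901 tested genes had a highest library over 3 times the next by CPM, and all were histone genes: H4c2 (12.5 times, vector 1), H3c11 (11.5 times, vector 2) and H2bc15 (5.08 times, vector 1). Outside vector these averaged 5.5, 4.67 and 7.17 counts, so they were tested only because of the group that holds the high library, and the count is a description. H3c4 was high in vehicle 4 (91 counts, against 9 in vehicle 5) and 12-HETE 5 (64, against 16), and had 1 and 12 in vector and 2 and 4 in ADAR1 p150. H3c3 was high in 12-HETE 4 (77 counts) and ADAR1 p150 1 (32), with 5 to 18 in the other 6. H2ac7 was high in ADAR1 p150 1 (44 counts, against 3 in ADAR1 p150 2). Without H4c2, H3c11 and H2bc15, the log2 ratio of the summed level of ADAR1 p150 to vector was -1.01.

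**Figure D3:**
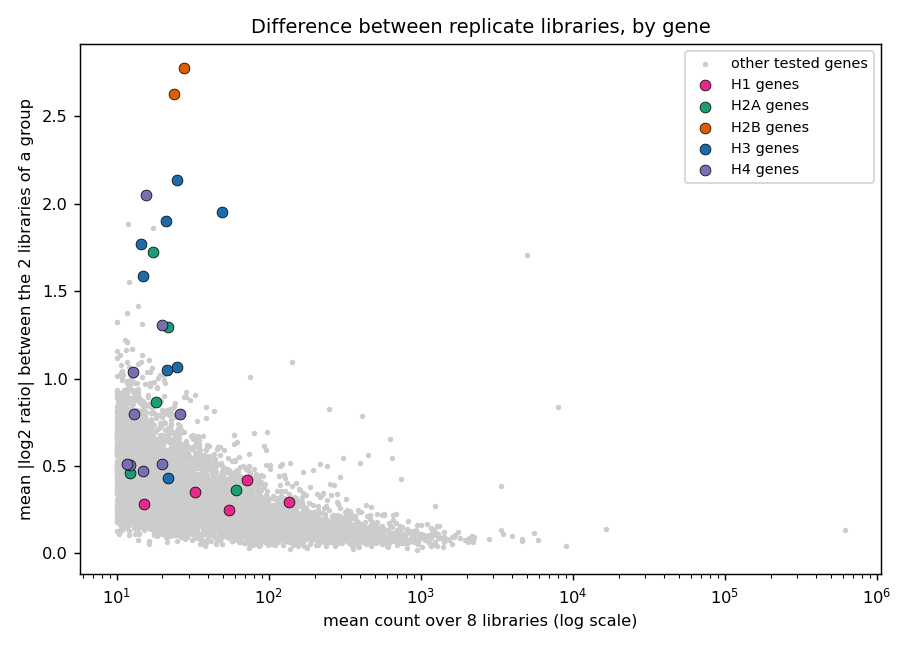
Mean absolute log2 ratio between the 2 libraries of a group (vertical axis) against the mean count over 8 libraries (horizontal log axis) for the 6901 tested genes. Grey points are genes outside the set and coloured points are histone genes by class. The H1 genes lie among the grey points, while H2B genes and several H3 and H4 genes lie above nearly all genes of like mean count.

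**Figure D4:**
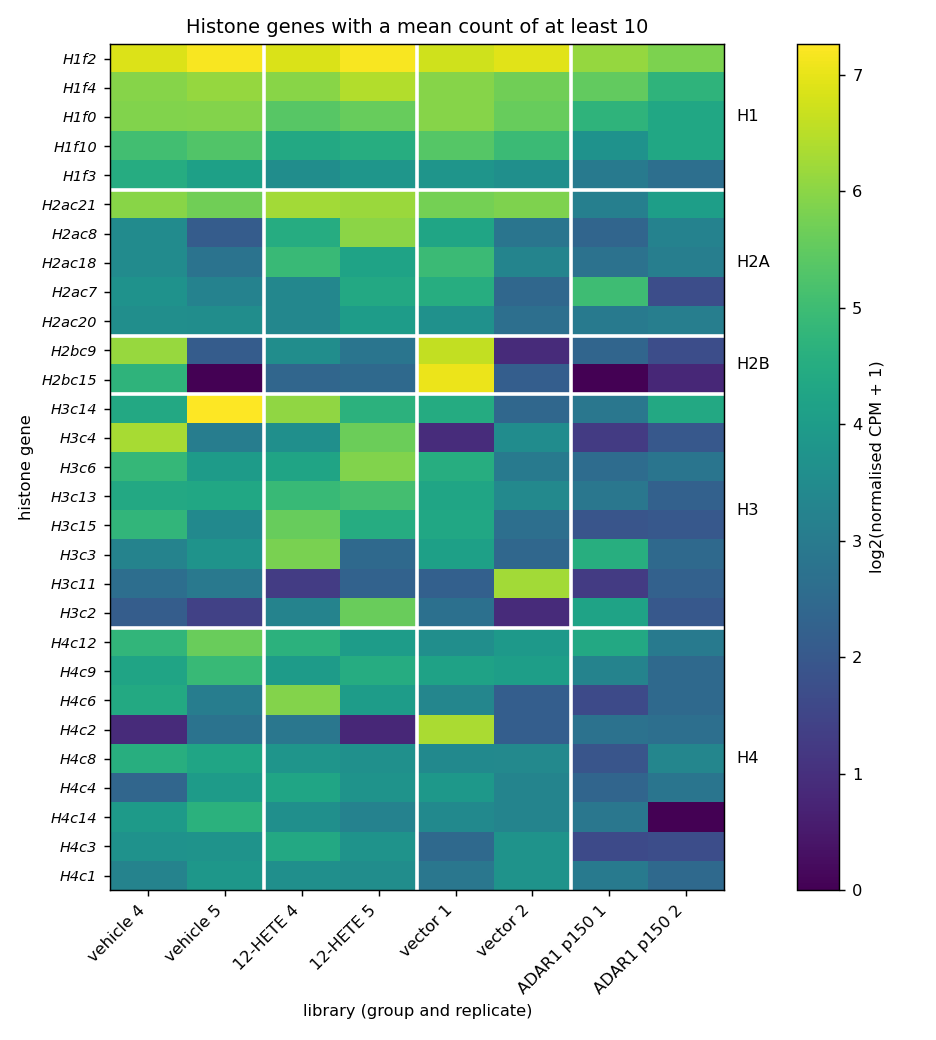
Level of each tested histone gene in each library, as the log2 of CPM plus 1 (colour), with genes in rows by class and libraries in columns by group. The H1 rows are even within groups, isolated bright cells appear in vector 1 for H2bc15 and H4c2 and in vector 2 for H3c11, and the ADAR1 p150 columns are darker in most rows.

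Per kilobase of the GENCODE transcript model, the mean level over the 8 libraries was highest in H2ac21 (111 CPM per kilobase), followed by H1f2 (70.2), H4c12 (66.4), H2bc15 (55.6), H4c6 (38.9) and H3c13 (35.4). This order depends on the models, which were 444 bases long in H2ac21 and 1560 in H1f2. The models of H2ac21, H4c12 and H2bc15 lack 20 bases past the stop codon, while that of H1f2 runs 840 bases past its stem-loop. H2bc15 reached its place through vector library 1, which held 75.3% of all its counts. H4c2 (34.2) and H3c11 (31.0) likewise had 70.4% and 73.1% of their counts in a single library. By contrast, the highest library held 17.3% of the counts of H1f2, 16.4% of H1f0 and 21.9% of H2ac21.

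The 40 histone genes under the minimum had mean counts up to 9.5 (H2ac19) and were not tested. Their summed level was 140 and 121 CPM in vehicle, 140 and 150 in 12-HETE, 106 and 105 in vector and 57 and 46.1 in ADAR1 p150, a log2 ratio of -1.03 for ADAR1 p150 against vector (means 51.5 ± 7.69 and 105 ± 0.735 CPM). H2bc7 was singled out once its values were known, and had 22 and 21 counts in 12-HETE against 2 and 0 in vehicle and at most 1 in each other library. The ratio of 12-HETE to vehicle was 18.8, with a 95% exact binomial interval from 4.91 to 161 for counting error alone. H1f5, likewise singled out, had 17 and 10 counts in 12-HETE, 8 and 6 in vehicle, 3 and 4 in vector and 2 in each ADAR1 p150 library.

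H2A and H2B genes often stand head to head and share 1 promoter, and the octamer ATTTGCAT is a known element of H2B promoters. In RefSeq promoters of GRCm38.p6, from 250 bases before to 50 after the start, ATTTGCAT on either strand was found in 7 of 15 H2B entries, 6 of 17 H2A entries, 0 of 10 H1, 0 of 10 H3 and 0 of 12 H4 entries, and in 1.7% of 32787 other promoters. CCAAT was in 100% of H2A, H2B and H3 entries, 25% of H4 entries and 37.3% of the others, and TATAAA in 53.1% of histone entries and 13.5% of the others. A match is a description of the sequence. The window between H2ac8, which rose with 12-HETE, and H2bc8 is shown with its octamer in capitals, in the direction of H2bc8, at chr13:23571333-23571356 of GRCm38.p6.
H2bc8: agtcccttATTTGCATagaacctc
H2ac8: gaggttctATGCAAATaagggact
The same 24 bases are read from the opposite strand in the second line. H2bc8, under the minimum, had 1 and 4 counts in vehicle, 11 and 5 in 12-HETE, 7 and 1 in vector and 4 and 3 in ADAR1 p150. It was above vehicle in both 12-HETE libraries, but only by 3.83 CPM in 12-HETE 5 against 3.32 in vehicle 5, and vector 1 was at 6.39 CPM. In the neighbouring head-to-head pair, H2bc7 was higher with 12-HETE, while H2ac7 overlapped (14 and 10 counts in vehicle, 13 and 26 in 12-HETE). A joint change of such pairs was not tested.

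Other genes of histone supply were read from lists. Of 33 S phase genes, among them genes of DNA replication factors, enzymes of nucleotide synthesis and cyclins, 20 were tested. With 12-HETE 4 rose and 0 fell, beside 6.12% and 8.25% of all genes (9 higher and 1 lower at an unadjusted p under 0.05, and 1 and 0 in DESeq2), with Rrm1, a ribonucleotide reductase subunit (24 and 38 counts against 115 and 59, 1.29 ± 0.269), and the replicative helicase genes Mcm3 (1.16 ± 0.313) and Mcm2 (1.09 ± 0.299) among them. The call of Rrm1 was lost without 12-HETE library 4 (0.79). With a library left out, Mcm2 ranged from 0.90 to 1.26, under 2-fold at its lowest, and Mcm3 from 1.02 to 1.26. Under library totals Mcm2 and Mcm3 were under 2-fold (0.89 and 0.96). Fen1, the most counted gene of the list, was at 0.60 ± 0.115 (adjusted p = 9.17e-05, edgeR).

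With ADAR1 p150 1 S phase gene rose, Rfc2 (5 and 4 counts against 15 and 16, 1.47 ± 0.502, adjusted p = 0.0280, edgeR), and 0 fell, beside 8.11% and 4.69% of all genes (2 higher and 3 lower at an unadjusted p under 0.05, 0 in DESeq2). Rfc2 averaged 9.33 counts outside ADAR1 p150, so it reached the minimum only through that group. The Rfc2 call was lost in each fit that left out a library of the comparison, with values between 1.29 and 1.67. The median of the list was -0.05 with ADAR1 p150 and 0.39 with 12-HETE. Its summed level was 1076 and 1125 CPM in vehicle, 1459 and 1548 in 12-HETE, 1089 and 1127 in vector and 1088 and 1079 in ADAR1 p150. Such a sum is weighted by its most counted genes. At an unadjusted p under 0.05 in edgeR, Ccna2 (-0.38), Mcm7 (-0.52) and Gins2 (-0.57) were lower with ADAR1 p150, and Tk1 (0.38) and Rfc2 were higher. Whether the share of cells in S phase differed was not tested.

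**Figure D5:**
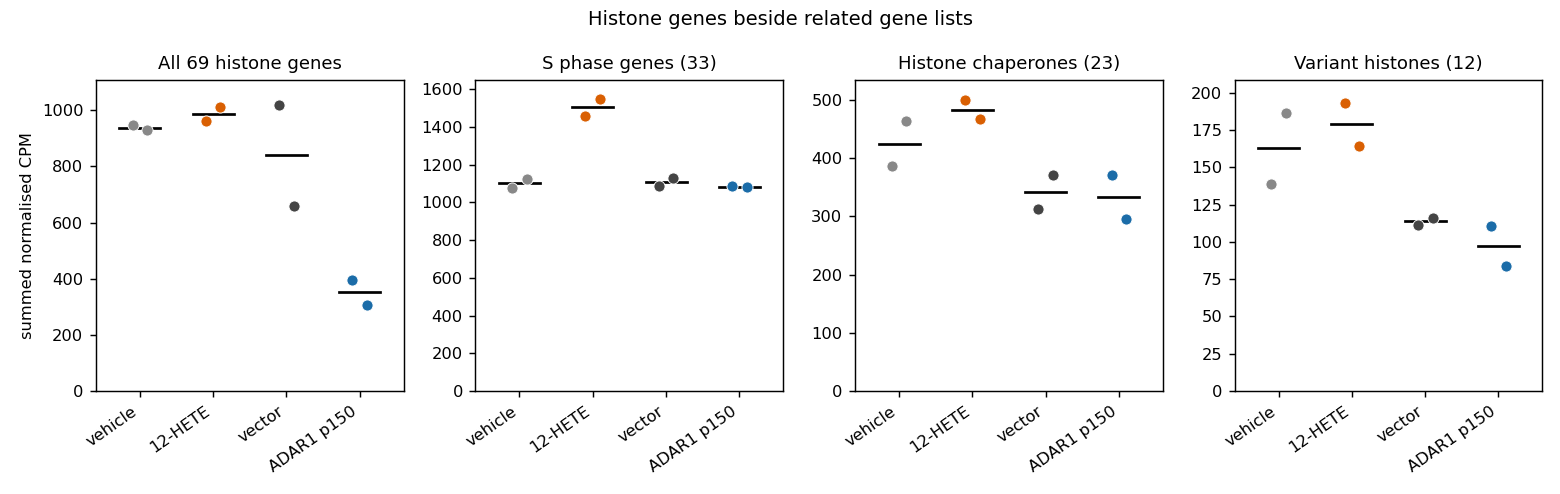
Summed level in CPM scaled by TMM (vertical axes, from 0) of the 69 histone genes, 33 S phase genes, 23 histone chaperone genes and 12 variant histone genes in the 4 groups. Points are libraries and bars are means of 2. The histone sum is lowest in ADAR1 p150, the S phase sum is highest in 12-HETE, and the chaperone sums of vector and ADAR1 p150 overlap. The variant histone sums of ADAR1 p150 (110.4 and 83.91 CPM) also lie under those of vector (111.4 and 116.2), in ADAR1 p150 1 only narrowly.

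Among 12 replication-independent and variant histone genes, 7 were tested. H2ax, which encodes the variant phosphorylated at DNA breaks, had 20 and 13 counts in vector and 8 and 7 in ADAR1 p150 and fell by 1.42 ± 0.438 (adjusted p = 0.0149, edgeR), and no other gene of the list was called in either treatment. This is 1 of 7 lower with ADAR1 p150, beside 4.69% of all genes. Its call was lost in DESeq2 (-1.50), without vector library 1 (-1.04) and without either ADAR1 p150 library (-1.46 and -1.37). H3f3b, which encodes H3.3, was at -0.84 ± 0.259 (adjusted p = 0.0145, edgeR), while H3f3a, which encodes the same protein, was at 1.32 ± 0.528 (adjusted p = 0.0628, edgeR).

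Of 17 histone mRNA processing genes 7 were tested, and with 12-HETE 1 rose, Zfp473, a component of the histone pre-mRNA processing complex, beside 6.12% of all genes. It had 7 and 3 counts in vehicle and 19 and 14 in 12-HETE (1.51 ± 0.501, adjusted p = 0.0210, edgeR), and 0 of the 7 were called with ADAR1 p150 (0 higher and 1 lower at an unadjusted p under 0.05, 0 in DESeq2). Zfp473 averaged 7.83 counts outside 12-HETE and so passed the minimum only through that group, and its call was lost without vehicle library 5 (0.94) and without 12-HETE library 4 (1.33). In the difference of the effects Cpsf2, a subunit of the cleavage complex, was called at -1.24 (adjusted p = 0.0268, edgeR). Srrt, the most counted of the list, was at 0.26 with 12-HETE and -0.17 with ADAR1 p150. Of 15 tested histone chaperone genes only Anp32e, which encodes an H2A.Z chaperone, was called with 12-HETE (1.42 ± 0.473, adjusted p = 0.0216, edgeR), with 9.67 counts on average outside that group, but not without either vehicle library (1.57 and 1.20) or 12-HETE library 4 (1.19). With 12-HETE, DESeq2 called 0 genes of either list, with Anp32e at 1.41. None was called with ADAR1 p150 in edgeR or DESeq2 (1 higher and 0 lower at an unadjusted p under 0.05), and Supt6, the most counted, was at -0.07 and 0.01.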

How the data were processed

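The authors deposited raw counts per gene, without normalisation, for 8 RNA-seq libraries of EO771 cells (4 groups of 2). For its RNA editing data the paper names FastQC for quality, prinseq for removal of duplicates and STAR for alignment to GRCm38. For expression it refers to its standard process, with STAR and featureCounts and no mention of duplicates. Whether duplicates were removed before these counts were made is therefore not settled. The paper names Trizol and a directional kit and describes the 12-HETE data as stranded sequencing of total RNA, whereas the labels name a column kit and a SMARTER mRNA library kit, so these sources do not settle how far RNA without a poly(A) tail was captured. All 8 count columns were matched to samples by title, and 0 columns were left over.

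A gene was kept when its counts averaged 10 or more (6901 of 49997, 13.8%). edgeR 4.0.16, run in R 4.3.3 with limma 3.58.1, gave TMM factors and quasi-likelihood tests from 1 model of the 8 libraries, which had a term for each group and no block. Benjamini-Hochberg adjustment was over the 6901 genes, and a call needed at least 2-fold and an adjusted p under 0.05. The standard error given is the size of the log2 fold change divided by the square root of F. On simulated data for ADAR1 p150 against vector with 6901 genes, 185 of 200 genes changed 4-fold were recovered with 3 false calls. Replicate libraries differed by more than sampling noise (mean chi-square per gene between 1.4 and 1.71). Alternatives were DESeq2 1.42.0, RLE factors, library totals, AY036118 left out, other minimum counts, a replicate block, a fit of 4 libraries, and leaving out each library.

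Histone genes named are those averaging 10 or more counts and the most counted of each class. From lists of variant histones, histone mRNA processing, chaperones and S phase genes, called genes and the most counted gene are named. The values of 1 called gene under this rule are not reported here. Among the genes named outside this rule are H3f3a, Ccna2, Mcm7, Gins2, Tk1, H2ac24, H2bc8 and those marked in the text. Cpsf2, called only in the difference of the effects, is another. The histone genes and lists were chosen with earlier results of these data known. Positions and promoters are from RefSeq (GRCm38.p6, all 69 symbols matched) and transcripts from GENCODE M21 (68 matched).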

Additional observations from a re-analysis of the deposited data

Results flagged for a closer look

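The difference between the ADAR1 p150 effect and the 12-HETE effect passed an adjusted p of 0.05 in edgeR's interaction contrast for 8 of the 29 tested histone genes. On the log2 scale it was -0.85 in H1f2, -2.60 in H2ac21, -3.57 in H2ac8, -3.08 in H2ac18, -2.20 in H3c6, -2.09 in H3c13, -2.94 in H3c15 and -2.31 in H4c3. H1f2 was short of a 2-fold difference (adjusted p = 0.00885, edgeR). H4c3 averaged 9 counts outside 12-HETE and reached the minimum only through that group. Without vector library 1, H2ac8, H2ac18, H3c6, H3c13 and H3c15 were no longer called. H4c3 was no longer called without vehicle library 4 or 5, 12-HETE library 4, vector library 2 or either ADAR1 p150 library. H3c6 lost its call also without vehicle library 5, 12-HETE library 5 or either ADAR1 p150 library, and H3c15 without 12-HETE library 4. Of the 7 genes called at 2-fold, H2ac21 was the one called without each library in turn. H2ac21 had 107 and 92 counts with 12-HETE and 11 and 21 with ADAR1 p150, against 73 and 61 in vehicle and 58 and 65 in vector.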

How the results depend on the processing

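The calls rested on few counts and 2 libraries a group, and 5 of the 29 tested histone genes had 10 counts in every library. H2ac8 with 12-HETE and H1f0 and H2ac21 with ADAR1 p150 were called in every fit that tested them. With 12-HETE, where 4 were called, DESeq2 called 1, a minimum of 10 in every library 0, no minimum 9, and a fit of the 4 libraries 7. With ADAR1 p150 (12), DESeq2 called 4, with no adjusted p for 5 genes, and 10 counts in every library left 3. The difference of effects (7) gave 1, 1 and 11 with DESeq2, 10 counts in every library and no minimum. Vector against vehicle (2) gave 0 with DESeq2, library totals, 10 counts in every library and the 4 libraries alone, 4 with RLE factors, 5 without AY036118 and 6 with no minimum. Leaving out a library gave 5 to 8, 5 to 12, 3 to 10 and 2 to 4 calls in these comparisons. The log2 ratio of the summed level then ranged from 0.04 to 0.11 with 12-HETE, -1.53 to -0.91 with ADAR1 p150 and -0.51 to 0.12 for vector against vehicle. With 12-HETE it was -0.13 with library totals, -0.002 without AY036118 and 0.13 as the median of the fitted values. The replicate block gave 5 calls with 12-HETE, 12 with ADAR1 p150 and 8 for the difference; replicates of the same number did not deviate together (correlations of -0.077 and -0.112 over 6901 genes), so they were not taken as pairs. With the ADAR1 p150 numbers crossed, chosen after seeing the data, the block gave 15.

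Signs turned for log2 fold changes that were not called, and for 2 called ones that are named below. With library totals and 12-HETE, H1f4 was at -0.02, H2ac20 at -0.05, H4c1 at -0.19, H4c2 at -0.07 and Adar at -0.02. H4c1 with 12-HETE was at -0.0048 in DESeq2, -0.01 with RLE factors, -0.06 without AY036118, -0.03 with no minimum and -0.01 in 4 libraries. With ADAR1 p150, H3c14 was at -0.03 in DESeq2 and with RLE factors, -0.02 without AY036118 and in 4 libraries, and -0.08 with no minimum, where H4c12 was at -0.003. With a library left out, 12-HETE values ranged from -0.19 to 0.14 (H1f2), -0.07 to 0.41 (H1f4), -0.24 to 0.48 (H2ac20), -0.12 to 0.97 (H2ac7), -2.58 to 5.53 (H2bc15), -3.08 to 1.33 (H2bc9), -1.82 to 1.15 (H3c14), -1.18 to 2.37 (H3c3), -1.88 to 1.98 (H3c4), -0.24 to 1.46 (H3c6), -0.26 to 0.30 (H4c1) and -2.0 to 1.92 (H4c2). ADAR1 p150 values ranged from -0.70 to 0.47 (H2ac20), -2.47 to 1.93 (H2ac7), -1.54 to 0.02 (H2ac8), -4.83 to 1.80 (H2bc9), -0.97 to 1.53 (H3c14), -0.05 to 3.45 (H3c2), -1.16 to 1.63 (H3c3), -2.21 to 1.18 (H3c4), -0.87 to 0.65 (H4c12) and -3.85 to 0.63 (H4c2). H2bc9 and H4c2 with ADAR1 p150 are the 2 called values among these. Where a library was left out, the lone one was assumed to vary like the other groups. The cause of these changes was not tested.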
